A study of Oryza sativa Indica Group with 64 samples.

Results

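The 200 genes described here had their highest leaf transcript level at 23 h after dawn in control rice, and they were chosen by that measurement. Read counts were divided by the library total and scaled to CPM (a gene's counts per 1000000 counts on all genes), the level of a gene at a time point was the median of log2(CPM + 1) over the 4 control replicates, and its range was the highest minus the lowest of the 8 levels. Of 57174 genes listed, 4256 had a control range of at least 2, 602 of these were highest at 23 h, and the 200 with the largest ranges were taken. Their control ranges ran from 8.86 down to 3.40 with a median of 4.26. The last 3 genes taken had ranges of 3.41, 3.41 and 3.40, and the first 3 left out had 3.40, 3.39 and 3.39, so no gap in the values separates the members from the 402 other genes of the same peak time.

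The libraries came from leaves of the IR64 variety of indica rice, all grown on a field plot at the International Rice Research Institute (IRRI) in the Philippines in 1 dry season. Control plants had no heating named in the labels, and plants under warm night temperature (WNT) were exposed to infrared heaters at night. Each treatment was sampled at dawn, at 3, 7, 10, 14, 17 and 23 h counted from dawn, and at dusk, with 4 replicates per group, which gave 16 groups and 64 libraries. The hour of dusk, the plant age and the night temperature of the WNT plants are not given in the labels, and dusk was placed between 10 h and 14 h. Messenger RNA was isolated by its poly(A) tail and sequenced from directional libraries, so transcripts without such a tail are not represented. The labels do not say that replicates came from separate plants or plots, so p-values measure the spread between these samples, which may be technical, and a difference between plots cannot be told apart from WNT.

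The shallowest library had 1714647 counts on genes, the deepest 37248564 and the median one 8627815. The smallest level a library could show, set at 3 counts, was between 0.0805 and 1.75 CPM and covers counting error only. No replicate pair agreed within counting noise. The identifiers of the counts were not matched to gene names (0 of 57174), so the leaf identity of the samples was not checked with marker genes and the members have no stated function. The assay takes RNA from whole leaf tissue, in which fewer cells of a type and less RNA per cell cannot be told apart. Levels are compared below within a gene or as medians over the same genes. The members' CPM and shares of counts are listed as well, without correction for gene length.

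Plants keep time with a circadian clock, a set of transcription factors that repress and activate each other in turn through the day, and light and temperature at dawn and dusk set its phase. Transcripts that accumulate late in the night include those of morning clock genes and of genes that prepare the leaf for photosynthesis at sunrise. Night temperature is a cue to this clock as well as a stress, and respiration and starch use in the leaf proceed through the same hours.

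The members formed a deep daily wave with a broad crest over the end of the night and dawn. In control, the median level over the 200 genes went from 7.27 (dawn) through 6.18 (3 h) and 4.98 (7 h) to 3.47 (10 h) and 3.42 (dusk), then stood at 3.70 (14 h), 4.58 (17 h) and 7.65 (23 h). The level was therefore low from late in the day through the first part of the night, and most of the climb lay between 17 h and 23 h. That last step had a median of 2.73 on the log2 scale, against 0.93 between 14 h and 17 h and 0.18 between dusk and 14 h. Because control values chose the genes, this course is a description and carries no test.

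In WNT, the same genes had median levels of 7.42 (dawn), 6.30 (3 h), 5.09 (7 h), 3.38 (10 h), 3.83 (dusk), 4.07 (14 h), 4.81 (17 h) and 7.29 (23 h). The median was lowest at dusk in control and at 10 h in WNT, and in both treatments the largest step up lay between 17 h and 23 h. The range in WNT had a median of 4.04 (1.93 to 9.11), and 199 of 200 members kept a range of at least 2. The range was smaller than in control in 154 members, which is also the direction that choosing genes for a large control range favours.

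**Figure D1:**
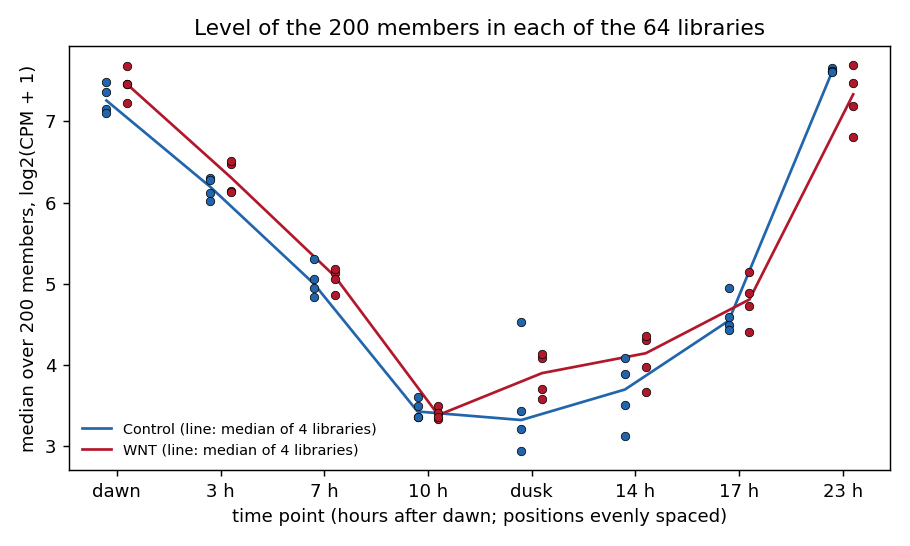
Level of the 200 members by library: each point is the median log2(CPM + 1) over the members in 1 library, at 8 evenly spaced time points, for control (blue) and WNT (red), and each line joins the medians of the 4 libraries. The 4 control libraries at 23 h lie between 7.60 and 7.66, while the 4 WNT libraries at 23 h spread from 6.81 to 7.69.

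The spread between replicates differed along the wave. At 23 h, the per-library medians in control replicates 1 to 4 were 7.66, 7.63, 7.62 and 7.60 (SD 0.0217, n = 4). In WNT replicates 1 to 4 at 23 h they were 7.47, 7.20, 6.81 and 7.69 (SD 0.38, n = 4). The control libraries almost coincided at the time point that defined the genes, while WNT replicates 1, 2 and 3 lay below all of them and replicate 4 above all of them. The median SD of single members at 23 h was likewise 0.17 in control and 0.44 in WNT, beside 0.27 and 0.51 for all genes with a control range of at least 2. The choice of genes by their control median at 23 h used those 4 libraries, so the narrow control spread was not read as a treatment difference.

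At dawn, the per-library medians were 7.16, 7.49, 7.36 and 7.10 in control and 7.23, 7.46, 7.46 and 7.69 in WNT. The dawn ranges of the treatments overlapped, with 1 WNT library above all control libraries. At dusk, control gave 2.94, 3.21, 4.53 and 3.43 and WNT gave 3.58, 4.09, 4.14 and 3.71. Control replicate 3 at dusk stood above every other dusk library, and the remaining 3 control libraries stood below all 4 WNT libraries. At 14 h, control gave 3.12, 3.50, 3.89 and 4.08 and WNT gave 4.31, 3.66, 3.98 and 4.35, again with overlap. At 10 h, all 8 libraries lay between 3.34 and 3.60.

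Measured as a share of all counts on genes, the members took up 10.4% to 11.3% of the 4 control libraries at 23 h and 0.391% to 0.496% at 10 h. In WNT, the shares at 23 h were 9.43%, 9.18%, 6.09% and 11.8% in replicates 1 to 4, and at 10 h they were 0.442% to 0.498%. At dawn the shares were 8.49% to 10.7% in control and 8.20% to 13.5% in WNT. At 23 h, 3 of 4 WNT libraries lay below the control shares and 1 above them, and at dawn the WNT shares spanned the control shares. A single member, the one with the highest mean CPM, held 3.18% to 3.71% of counts at 23 h in control. It held 3.05%, 3.46%, 1.66% and 4.30% in WNT replicates 1 to 4.

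A few libraries stood apart and touch these values. Control replicate 3 at dusk was the highest of its 4 libraries in 162 of 200 members, and it had 3429002 counts on genes and 25.7% of reads not aligned, against 12.2% to 17.0% in the other 3. WNT replicate 3 at 23 h was the lowest of its 4 libraries in 144 members, with 59.8% of reads on genes against 66.1% to 74.4% in the other 3. WNT replicate 3 at 17 h was the lowest of its group in 70.5% of members, and WNT replicate 4 at 23 h the highest of its group in 61.5%. Control replicate 2 at 14 h had 37.8% of reads on genes, the lowest of the 64 libraries, and 20.6% not aligned. The part of alignment and depth in these values was not tested, and the differences at dusk, 14 h and 23 h are given with and without the library of that time point.

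The members shared the crest but not the trough. In control, the lowest level lay at 10 h in 94 members, at dusk in 48, at 14 h in 42, at 7 h in 11 and at 17 h in 5. Those lowest at 10 h had a median of 2.73 there and had reached 4.02 by 14 h. Those lowest at 14 h were still at 5.49 at 7 h and 4.09 at 10 h, reached 2.69 at 14 h and then stood at 7.57 at 23 h. The 11 members lowest at 7 h had a different shape, going from 6.03 at dawn to 2.73 at 7 h and then standing at 4.58 at dusk and 5.61 at 17 h, so part of their climb came before 17 h.

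In WNT, the lowest level lay at 10 h in 66% of the members, at dusk in 31 members, at 14 h in 19, at 7 h in 10, at 17 h in 5 and at 3 h in 3. Of the 94 members lowest at 10 h in control, 87 were lowest at 10 h in WNT too. Of the 48 lowest at dusk in control, 13 kept that time, and of the 42 lowest at 14 h, 13 did. These shares were not tested against each other. Among the 11 members lowest at 7 h, 9 were highest at 23 h in WNT, against 30 of the 94, 8 of the 48 and 7 of the 42 in the larger classes.

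The morning decline also varied among members. From dawn to 3 h in control, the level was lower by 1 or more in 87 members, lower by less than 1 in 99, and higher in 14. In WNT, the median change over the same interval was -1.73 in the first class, -0.69 in the second and -0.03 in the third. The classes made on control values kept their order in WNT libraries. None of the 87 members of the first class was highest at 3 h in WNT, whereas 6 of the 14 in the last class were.

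**Figure D2:**
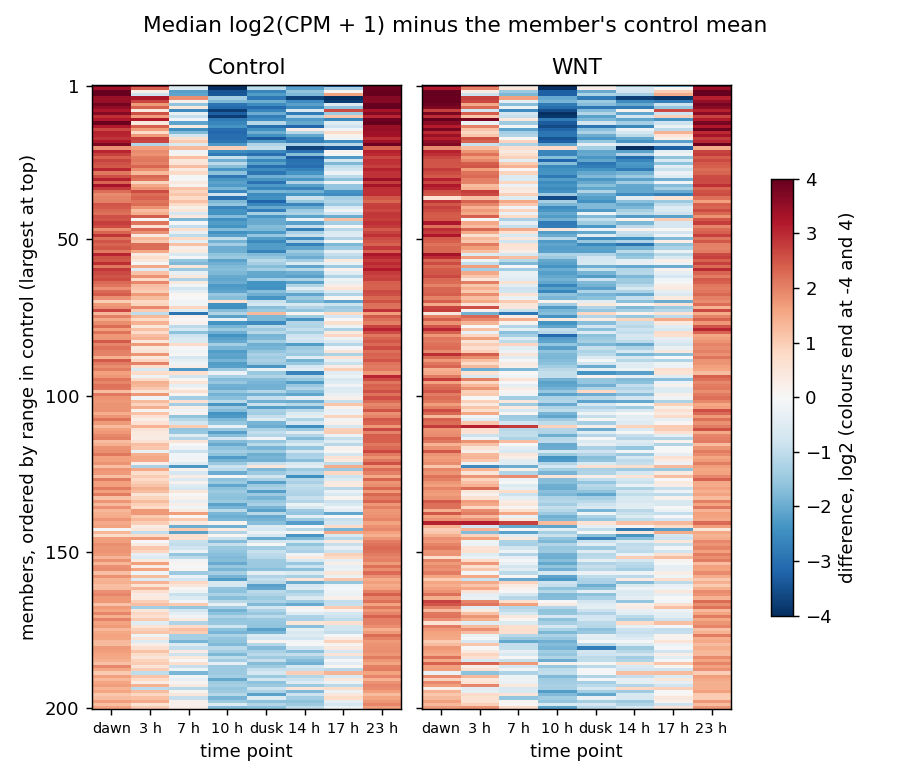
Course of each of the 200 members: rows are members ordered by control range with the largest at the top, columns are the 8 time points in control (left) and WNT (right), and colour is the median log2(CPM + 1) minus the member's control mean, ending at -4 and 4. Red columns at dawn and 23 h and blue columns from 10 h to 14 h appear in both treatments, and the 23 h column is paler in WNT, where 181 of 200 members lie below their control level.

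The WNT libraries were not used to choose the genes, so the wave was tested in them alone, with edgeR's quasi-likelihood test on 19949 genes and Benjamini-Hochberg adjustment. Compared with the mean of the other 7 time points, 196 of 200 members (98%) were higher at 23 h at an adjusted p-value under 0.05, against 19.7% of all genes tested. Their log2 fold changes ran from 0.89 to 5.40, and the median over all 200 was 2.41, a 5.31-fold difference. The 4 members that did not pass had log2 fold changes of 0.42 to 1.08, all positive, with adjusted p-values of 0.0547 to 0.401. The level at 23 h was thus above the average of the rest of the day in WNT for nearly every one of the 200 members.

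The climb itself was tested between 17 h and 23 h in WNT. It was significant in 184 members (92%), against 10.7% of all genes that rose over that interval, with a median of 2.68 on the log2 scale, or 6.41-fold. The 16 members that did not pass had positive estimates from 0.31 to 2.79. All 10 alternative settings gave between 178 and 190 members.

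The earlier part of the day was tested in the same WNT model, in comparisons added after the data were seen. From dawn to 3 h, 109 members fell and none rose, against 14.3% of all genes falling, with a median log2 change of -1.08. From 3 h to 7 h, 147 fell and none rose, against 11.8% of all genes falling (median -1.47), and from 7 h to 10 h, 150 fell and 1 rose, against 8.33% of all genes falling (median -1.93). The median fall of the members was larger at each later step, but the steps span unequal hours, so no change in rate is read from it. The single member that rose from 7 h to 10 h changed by 1.33.

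After 10 h the direction turned, and fewer members passed the test in each step. From 10 h to dusk in WNT, 24 rose and 2 fell, against 1.15% of all genes rising, with a median log2 change of 0.65. From dusk to 14 h, 8 rose and 1 fell, against 0.556% of all genes rising (median 0.09), and from 14 h to 17 h, 37 rose and none fell, against 0.566% (median 0.82). These evening counts changed when all WNT libraries of 1 replicate number were left out, and the counts over all genes changed too. Leaving out WNT replicates 1, 2, 3 and 4 in turn, the rise to dusk was called in 2, 15, 4 and 3 members. Over all genes it was called in 13, 262, 30 and 7. The rise to 14 h was called in 0, 2, 15 and 0 members, beside 0, 10, 195 and 0 of all genes. That to 17 h was called in 18, 9, 52 and 14 members, beside 46, 20, 201 and 40 of all genes. DESeq2 called 42, 19 and 63 members in the same 3 steps, and it called more of all genes rising than edgeR in each.

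The position of the crest between 23 h and dawn was much less firm than the crest itself. In control, the level at 23 h exceeded the next highest time point by a median of only 0.29 (0.01 to 1.57), by less than 0.5 in 161 members and by more than 1 in 6. The next highest time was dawn in 183 members, 3 h in 13, 17 h in 3 and 7 h in 1. In WNT, dawn was the highest time in 66% of the members and 23 h in 27%, and the rest were highest at 3 h (13 members) or 17 h (1 member). The median difference of 23 h minus dawn was 0.32 in control, where the choice of genes made it positive in every member, and -0.14 in WNT, where it was positive in 58.

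**Figure D3:**
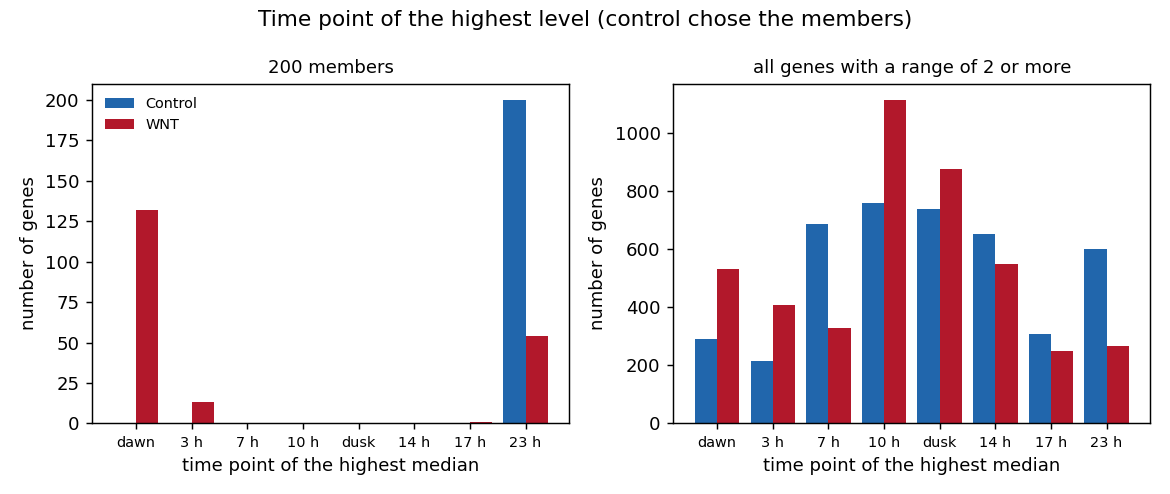
Number of genes by the time point of their highest median level in control (blue) and WNT (red), for the 200 members (left) and for all genes with a range of at least 2 in that treatment (right). All 200 members are at 23 h in control by the rule, whereas in WNT 66% are at dawn and 27% at 23 h. Among all such genes, more are highest at 23 h in control (602) than at dawn (291), and in WNT more are highest at dawn than at 23 h.

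In the test on WNT libraries alone, no member differed between 23 h and dawn at an adjusted p-value under 0.05. The quasi-likelihood test of edgeR called 0 higher and 0 lower. At an unadjusted p-value under 0.05 there were 15 of 200 members and 2611 of 19949 genes. DESeq2 called 2 members lower, beside 153 of all genes, and limma voom 1 lower, beside 80. Over all genes, edgeR called 0.0201% higher and 0.0551% lower. The members' median log2 fold change was -0.32. At the precision of 4 libraries per group, the crest in WNT was thus not resolved between these time points for any single member by the main test.

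Choosing the genes without 1 control replicate, and then reading that replicate, gave a measure in libraries that the choice did not use. Control replicates may share plants or plots, so its independence from the choice is not assured. Each choice on 3 control replicates took 200 genes, of which 167 to 171 were members. The median difference of 23 h minus dawn was 0.26 to 0.43 in the libraries that made the choice. In the control replicate left out it was 0.38, 0.08, 0.05 and 0.42 for replicates 1 to 4, with 23 h above dawn in 78%, 59%, 53.5% and 85% of the 200 genes. The lead of 23 h over dawn was therefore positive in every held-out control replicate but close to 0 in 2 of them.

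The same genes gave 0.10 to 0.18 in WNT replicate 1, -0.24 to -0.13 in replicate 2, -0.74 to -0.64 in replicate 3 and -0.16 to -0.08 in replicate 4, over the 4 choices. WNT replicate 1 thus lay above held-out control replicates 2 and 3, and WNT replicates 2, 3 and 4 lay below all held-out control values. Replicate numbers join libraries of different time points by label only, so these differences mix the spread of both time points. With TMM-scaled CPM, 39 members were highest at 23 h in WNT and the median difference of 23 h minus dawn was -0.25. Without WNT replicate 3 at 23 h, dawn was the highest time in 53.5% of the members and 23 h in 40.5%, and the median difference in WNT was -0.07. The lead of 23 h over the mean of the other 7 time points was 2.37 to 2.76 in held-out control replicates and 1.63 to 2.41 in WNT replicates.

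**Figure D4:**
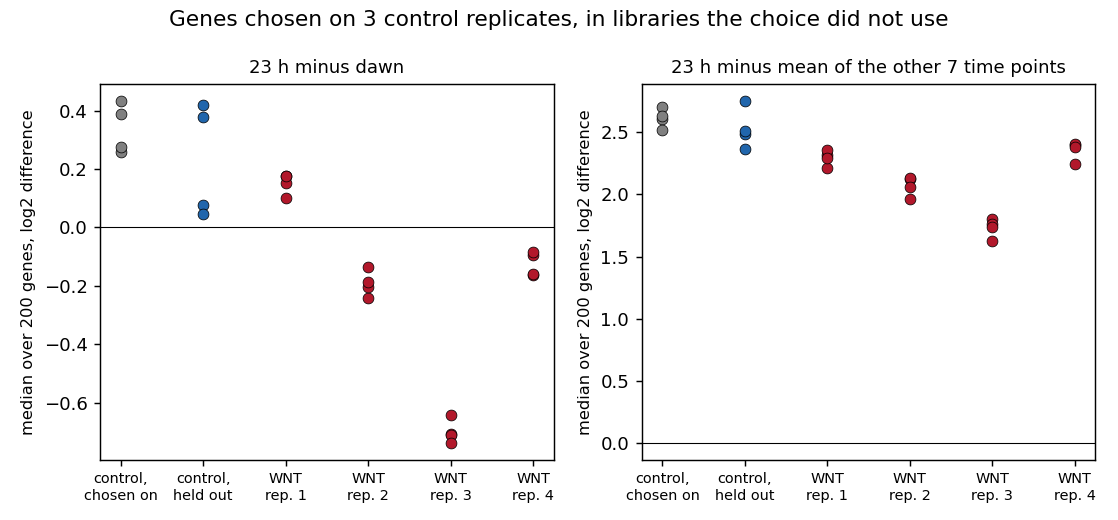
Median log2 difference over 200 genes chosen on 3 control replicates at a time: 23 h minus dawn (left) and 23 h minus the mean of the other 7 time points (right), in the control replicates that made the choice (grey), in the control replicate left out (blue) and in each WNT replicate (red), with 1 point per choice. The held-out control values of 23 h minus dawn are 0.05 to 0.42, and WNT replicates 2, 3 and 4 lie below 0 while replicate 1 lies above it.

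Widening the view to every gene with a range of at least 2 showed how little the control peak time said about the split between 23 h and dawn in WNT. Of the 602 genes highest at 23 h in control, 171 (28.4%) were highest at 23 h in WNT and 357 (59.3%) at dawn. Of the 291 genes highest at dawn in control, 80 (27.5%) were highest at 23 h in WNT and 168 (57.7%) at dawn. The shares were nearly the same whichever of the adjacent time points a gene had peaked at in control. Read the other way, 58.6% of the genes highest at 23 h in WNT were highest at 23 h in control, as were 328 (61.4%) of the 534 highest at dawn in WNT. The genes with a range of at least 2 and a peak at 23 h in both treatments were 23.8% of the control list and 53.4% of the WNT list, and 54 members (27%) were among the 200 genes chosen the same way in WNT.

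Differences between WNT and control are given next as a description, because control libraries chose the members. At 23 h, 181 members were below and 19 above their control level, with a median difference of -0.32 (-0.25 without WNT replicate 3). A lower value at the time point chosen for being highest in control is the direction that the choice favours. At dusk, 166 members were above control, with a median difference of 0.43 (0.58 without control replicate 3), and at 14 h 152 were above, with a median of 0.25. Without control replicate 2 at 14 h, 119 members were above control there and the median was 0.11. Over all genes with a control range of at least 2, members included, the median difference was 0.20 (23 h), 0.07 (dusk) and 0.09 (14 h). At the remaining time points the median difference was small: 0.09 (dawn), -0.03 (3 h), 0.01 (7 h), -0.02 (10 h) and 0.03 (17 h). Low control values at dusk and 14 h also entered the rule through the range, so the higher WNT values there lie in the favoured direction as well. In genes chosen without 1 control replicate, the level at dusk was 3.05 to 4.59 in that replicate and 3.48 to 4.26 in WNT, and at 14 h it was 3.21 to 4.05 and 3.60 to 4.49, so the ranges overlapped.

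Few members passed the test of WNT against control in a model of all 64 libraries on 20525 genes, and control values enter every count below, so nothing is read from a count beside its background. At 3 h, edgeR called 13 members (6.5%), 4 higher and 9 lower, against 6.84% of all genes. The higher ones differed by 0.76 to 1.79 on the log2 scale and the lower ones by -1.94 to -0.85. Without WNT replicate 4 the count was 2 members, beside 80 genes higher and 102 lower of 20614. Without control replicate 1 it was 7 members, beside 529 genes higher and 359 lower of 20770. The mean difference over the 8 time points passed in 29 members (14.5%), 16 higher by 0.29 to 1.29 and 13 lower, at -0.60 to -0.28, against 19.1% of all genes. Without WNT replicate 3 that count was 15 members, beside 882 genes higher and 1034 lower of 20694. Without control replicate 1 it was 17 members, beside 1375 genes higher and 1103 lower of 20770. Of the 13 members called at 3 h, 7 were also called for the mean difference, each in the same direction.

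At the other time points edgeR's quasi-likelihood test called 0 members at an adjusted p-value under 0.05. The background at this adjusted threshold was 0.404% of genes at dawn and 0% at 7 h, 10 h and dusk. It was 0.00487% at 14 h, 0.195% at 17 h and 0.00974% at 23 h. At an unadjusted p-value under 0.05 there were 8 of 200 members and 2952 of 20525 genes at dawn. The counts of members and genes were 14 and 1908 at 7 h, 20 and 1810 at 10 h, and 10 and 834 at dusk. Later they were 17 and 1138 at 14 h, 16 and 1422 at 17 h, and 23 and 3032 at 23 h. With DESeq2 the count was 1 (7 h), 4 (10 h), 5 (14 h) and 2 (17 h), and 0 at dawn, dusk and 23 h. Over all 20525 genes, DESeq2 called 25 higher and 22 lower at 7 h, and 149 higher and 85 lower at 10 h. It called 19 higher and 19 lower at 14 h, and 85 higher and 9 lower at 17 h. DESeq2 called more of all genes than edgeR at each of these 7 time points. In the edgeR fit the members' median log2 fold change at 23 h was -0.44, against 0.05 over all genes. It lay between -0.10 and 0.24 at the other time points. The value at 23 h was -0.29 without WNT replicate 3, with 6 members and 2146 of 20694 genes at an unadjusted p-value under 0.05. Without WNT replicate 4 it was -0.69, with 73 members and 3484 of 20614 genes under that threshold. At dusk, 50 members and 1346 of 20659 genes were under that unadjusted threshold without control replicate 3.

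Single members show the size of the wave in each library. MH12t0101700 had the largest control range, 8.86, and a range of 9.11 in WNT. At 23 h it had 2407, 2824, 2055 and 1923 CPM in control replicates 1 to 4 and 2041, 1652, 790.6 and 2487 CPM in WNT. At 10 h it had 4.14, 3.46, 12.8 and 2.52 CPM in control and 2.91, 16.4, 3.94 and 3.34 CPM in WNT. No library at 10 h came near any library at 23 h, and 1 library of each treatment was higher than the rest at 10 h. In WNT, its level at 23 h exceeded the mean of the other 7 time points by 4.37 on the log2 scale (SE 0.37, adjusted p = 2.51e-10, edgeR) and that at 17 h by 6.34 (SE 0.80, adjusted p = 1.14e-06, edgeR).

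At dawn, MH12t0101700 had 1758, 1863, 3124 and 1488 CPM in control and 1433, 2444, 2694 and 4073 CPM in WNT. Its WNT median was higher at dawn than at 23 h, but the libraries overlapped, and the log2 fold change of 23 h against dawn in WNT was -0.78 (SE 0.64, adjusted p = 0.683, edgeR). At dusk it had 0.778, 19.4, 137.9 and 48.1 CPM in control and 33.7, 119.8, 112.0 and 41.3 CPM in WNT. The control replicates at dusk thus spread from near the floor to well above every library at 10 h. At 14 h it had 1.80, 2.90, 66.6 and 90.9 CPM in control and 55.8, 3.14, 46.6 and 24.2 CPM in WNT.

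MH02t0014700 had the next largest control range, 8.50, and a WNT range of 7.42. At 23 h it had 1317, 856.0, 2232 and 1504 CPM in control and 1084, 536.7, 910.7 and 1528 CPM in WNT. At dawn it had 824.4, 1508, 1115 and 841.9 CPM in control and 641.5, 842.0, 1115 and 880.7 CPM in WNT. In both treatments the values at 23 h and dawn overlapped. In WNT, 23 h exceeded the mean of the other 7 time points by 3.32 (SE 0.37, adjusted p = 6.86e-08, edgeR) and 17 h by 3.65 (SE 0.69, adjusted p = 0.000287, edgeR), and differed from dawn by 0.09 (SE 0.62, adjusted p = 0.979, edgeR), which was -0.10 without WNT replicate 1 and -0.17 without WNT replicate 4.

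The evening values of MH02t0014700 followed the same libraries as those of MH12t0101700. At dusk it had 2.33, 27.1, 193.9 and 75.2 CPM in control and 58.5, 191.0, 208.8 and 66.1 CPM in WNT. At 14 h it had 2.66, 2.90, 107.4 and 150.9 CPM in control and 80.6, 3.60, 73.2 and 47.3 CPM in WNT. Control replicates 1 and 2 at 14 h and WNT replicate 2 at 14 h were low in both genes, and control replicate 1 at dusk was low in both. At 10 h it had 3.22, 2.37, 20.5 and 2.60 CPM in control and 3.13, 25.5, 7.18 and 2.54 CPM in WNT, so control replicate 3 and WNT replicate 2 were the high libraries for both genes there too.

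MH06t0622700 was the member with the largest rise in WNT among those called against control. At 3 h it had 42.1, 32.7, 47.8 and 23.5 CPM in control and 60.9, 82.6, 64.3 and 290.8 CPM in WNT. All 4 WNT libraries stood above all 4 control libraries, and WNT replicate 4 stood far above the other 3. The log2 fold change was 1.79 (SE 0.51, adjusted p = 0.0212, edgeR), and without WNT replicate 4 it was 0.76 (adjusted p = 0.580, edgeR). The adjusted p-value was above 0.05 in 5 of 12 alternatives, between 0.0525 and 0.0781 in those other than leaving out WNT replicate 4. At 23 h this gene had 184.9, 189.0, 195.3 and 181.5 CPM in control and 206.2, 115.7, 64.5 and 268.2 CPM in WNT, so the WNT values lay on both sides of the narrow control range.

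MH12t0115000 was the member with the largest fall in WNT. At 3 h it had 6.80, 5.06, 6.92 and 3.49 CPM in control and 2.65, 3.06, 1.30 and 0.401 CPM in WNT, without overlap. The floor of 3 counts in these WNT libraries was 0.794, 1.02, 0.432 and 0.301 CPM, so the WNT values rest on few reads. The log2 fold change was -1.94 (SE 0.61, adjusted p = 0.0402, edgeR), and in 6 of 12 alternatives the adjusted p-value was above 0.05 (0.0726 to 0.323). At 23 h it had 56.2, 61.2, 40.6 and 56.2 CPM in control and 47.5, 60.5, 15.3 and 59.3 CPM in WNT. The median of this gene was lowest at 7 h in control and at 3 h in WNT, and it was well above that by 17 h, with 35.5, 61.7, 18.0 and 75.9 CPM at 17 h in control and 41.7, 43.8, 26.6 and 40.9 CPM in WNT. In WNT its level at 23 h exceeded the mean of the other 7 time points by 2.01 (SE 0.31, adjusted p = 1.09e-05, edgeR) and that at 17 h by 0.65 (SE 0.47, adjusted p = 0.347, edgeR).

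**Figure D5:**
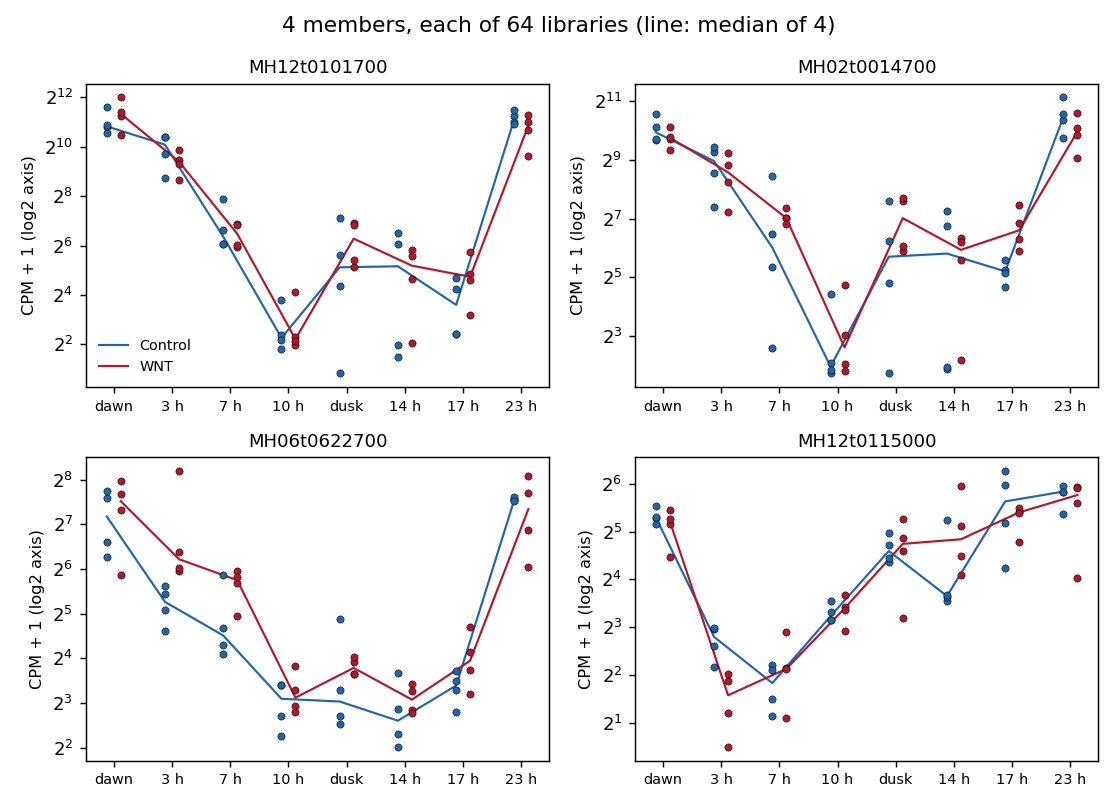
CPM + 1 on a log2 axis in each of the 64 libraries for the 4 members given by identifier, by time point, in control (blue) and WNT (red), with lines joining the medians of 4 libraries. MH12t0101700 and MH02t0014700 drop from crest to trough at 10 h in both treatments, MH06t0622700 has 1 WNT library at 290.8 CPM at 3 h, and MH12t0115000 is lowest at 3 h or 7 h and is well above that by 17 h.

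In the gene list, 10 of 200 members stood next to another member, in 5 pairs. The number for genes taken at random was not computed, so the pairs are not called few or many. All 200 passed the filter on low counts in both fits, and no library was at 0 counts for 181 of them. At 23 h in control, the median CPM of a member ran from 10.3 to 36456 (quartiles 61.8 and 408.8, median 199.3), and at its lowest time the median over members was 6.60 CPM. In 1 member the control median at its lowest time was 0 CPM. For genes this low in the trough, the range depends on the pseudocount of 1.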

How the data were processed

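RNA of 64 leaf libraries was analysed. The authors deposited counts, whole-number reads per gene without normalization, and the submitters' processing notes name HISAT2 and HTSeq 0.6.0. The genome build, annotation and strand setting are not given in the sources used here, so overlapping, antisense and near-identical genes are uncertain. The 5 closing lines of each library (24.8% to 62.2% of reads, median 28.2%) were left out. Groups and replicate numbers came from the labels. The members, comparisons and lists were chosen with earlier results of these data known.

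The tests used edgeR 4.0.16 under R 4.3.3 (filterByExpr minimum count 10, minimum total 15, TMM factors, robust glmQLFit, glmQLFTest, Benjamini-Hochberg adjustment, threshold 0.05). WNT time points were compared in a model of the 32 WNT libraries, and WNT was compared with control in a model of all 64 libraries. DESeq2 1.42.0, limma 3.58.1 (voom with quality weights), RLE factors, no filter, other pseudocounts, a replicate block and leaving out each replicate were alternatives. Tested on simulated data, the WNT model recovered 174 (87%) of 200 genes with a simulated log2 change of 2 between 17 h and 23 h, among 19398 genes, with 5 unchanged genes called. The 64-library model recovered 170 of 200 (85%) for WNT against control at 23 h among 19957 genes, with 7 unchanged genes called. The simulated log2 change was 2 there as well. Differences as small as the members' median of -0.44 at 23 h were not simulated, so their recovery is not known.

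As no names were matched, identifiers were printed for the pair of members with the largest ranges and, among members called for WNT against control at any time point, for the largest rise and the largest fall. Figures used Python 3.11.15 and matplotlib 3.10.9.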

Additional observations from a re-analysis of the deposited data

Results flagged for a closer look

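In 16 groups of 4 libraries, the members' median level and the CPM of the 4 named members were checked for a library far from the other 3, in 80 checks. The check is set to mark about 1 group in 20, which would give 4 if checks were independent and values normally distributed. Neither was checked, and the 4 genes were measured in the same libraries, so nothing is read from the number. There were 5 marks, all in single genes and none in the median over members. In MH12t0101700, control replicate 3 at 10 h had 12.8 CPM, against 2.52 to 4.14 CPM in the other 3 libraries, and WNT replicate 2 at 10 h had 16.4 CPM, against 2.91 to 3.94 CPM. In MH02t0014700, control replicate 3 at 10 h had 20.5 CPM, against 2.37 to 3.22 CPM. In MH06t0622700, WNT replicate 4 at 3 h had 290.8 CPM, against 60.9 to 82.6 CPM. In MH12t0115000, control replicate 1 at 14 h had 36.7 CPM, against 10.7 to 11.7 CPM. Control replicate 3 at 10 h stood out in both of the members with the largest ranges, which are separate genes measured in the same library.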

How the results depend on the processing

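Of 348 recomputed values, 291 kept their direction and their call or size, where a count was held to be kept within a set factor. Kept counts could therefore still differ. With TMM scaling 802 genes met the rule, against 602, and without WNT replicate 4 there were 83 members falling from dawn to 3 h, against 109. The direction changed in 1 named comparison that was not significant, MH02t0014700 at 23 h against dawn in WNT (-0.17 to 0.37 without 1 WNT replicate, below 0 without replicate 1 or 4). Alternatives for single steps within WNT, for 23 h lower than dawn, for 23 h minus dawn, for single members and for libraries that stood apart were chosen after seeing the data. The rule gave 401 genes with a pseudocount of 5 and 270 with a range of at least 3. The median WNT range was 4.24 with TMM scaling, 4.25 with a pseudocount of 0.5, 3.35 with a pseudocount of 5, and 4.06 to 4.18 without 1 WNT replicate. Members highest at 23 h in WNT numbered 46 to 82 without 1 WNT replicate, with 82 without replicate 3, and 39 with TMM scaling, where 23 h minus dawn was -0.25. In control replicates held out of the choice, 23 h minus the mean of the other time points was 2.37 to 2.76 and 23 h minus dawn was 0.0465 to 0.421.

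For members lower at 23 h than at dawn in WNT, DESeq2 gave 2 and limma voom 1. From 10 h to dusk, DESeq2 gave 42, voom 59, and leaving out replicates 2 to 15. From dusk to 14 h, no filter gave 4, DESeq2 19, voom 32, and leaving out replicates 0 to 15. From 14 h to 17 h, DESeq2 gave 63, voom 89, and leaving out replicates 9 to 52. For WNT against control, leaving out replicates gave 2 to 15 members (3 h), 0 to 1 (7 h), 0 to 1 (10 h), 0 to 6 (14 h), 0 to 1 (17 h) and 15 to 32 (mean difference), where the lowest, 15, came without WNT replicate 3 and 17 without control replicate 1. DESeq2 gave 1 (7 h), 4 (10 h), 5 (14 h) and 2 (17 h). The number of all genes called also changed between these settings. Fewer samples were tested when replicates were left out, and otherwise the cause was not tested.

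Deviations of same-numbered control and WNT libraries had correlations of -0.61 to 0.31 (median 0.02), and 6 of 32 were closest to their own number. Pairing by number was thus not apparent. This measure cannot exclude pairing by plant or plot, which the labels do not give. With a replicate block, 196 members were higher at 23 h than at the other WNT time points, 183 than at 17 h and 0 than at dawn, and 13 were called against control at 3 h and 28 for the mean difference. Replicates numbering 4 per group and 1714647 counts in the shallowest library limit what was detectable for members near the floor.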
